A study of Homo sapiens with 6 samples.

Results

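The transcripts of 10 genes were followed: RET and its co-receptor GFRA1, MET and its close relative MST1R, the TAM receptors AXL, TYRO3 and MERTK with their ligand GAS6, and the receptor kinases DDR2 and ROR1. All 10 were represented, by 21 of the 22215 probe sets tested, each of which carries the symbol of a single gene (11963 genes were named in this way). The genes were picked with the difference between the 2 groups of arrays already known. Their group differences are therefore given as a description, without a test. The samples came from cells labelled as HSC2, an oral carcinoma line grown in medium with serum, of which 3 were stably transfected with full-length wild-type MALT1 cDNA (labelled MALT1) and 3 with the vector alone (labelled mock). MALT1 is a protease and scaffold of the NF-kappaB pathway, and the study sought genes responsive to it. Neither the number of clones behind each transfected line nor whether the arrays of a group came from separate cultures is given in the labels, so the p-values below reflect no more than the variation among these 6 samples, which may be technical.

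Receptor tyrosine kinases span the cell membrane, bind a ligand outside the cell and phosphorylate tyrosines inside it. RET does not bind its ligands alone: a GDNF family protein first binds a GFRA co-receptor anchored to the membrane, and the complex then joins RET. This pair is best known from developing neurons and kidney, and both genes are oestrogen-responsive in luminal breast cells. MET is the receptor of hepatocyte growth factor (HGF) and drives growth and migration of epithelial cells, and MST1R (RON) is the receptor of the related macrophage-stimulating protein (MSP). GAS6 is a vitamin K-dependent protein that activates the TAM receptors, and AXL among these is well known in squamous carcinoma for its link to invasion and drug resistance. DDR2 is a receptor for fibrillar collagen in mesenchymal cells, and ROR1 is a receptor for Wnt5a with low expression in most adult tissues.

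The labels were first set against the arrays. The MALT1 transcript was lower, not higher, on the arrays labelled MALT1. On its probe set 210017_at the signals were 127.8, 124.5 and 106.9 on the arrays labelled MALT1 and 282, 242 and 236 on those labelled mock. On 208309_s_at and 210018_x_at the differences were smaller, 1.39-fold and 1.21-fold lower, and the latter did not pass (limma adjusted p = 0.097). The labels may therefore not describe these samples, although the probe positions were not analysed here, and each direction given here is between arrays as labelled. Of 12 luminal breast epithelium markers (among them GATA3, ESR1, FOXA1 and KRT19) all 12 rose on the arrays labelled MALT1, and their summed signal was 79070 to 87660 there against 8951 to 9667 on those labelled mock. Of 10 measured squamous and basal keratinocyte markers (among them KRT5, KRT14 and DSG3) all 10 fell, with a summed signal of 16120 to 17950 against 48560 to 53110. Both lists were written with these differences known. No squamous marker was at background on either set of arrays. FOXA1, KRT19, TFF1 and SPDEF were at background on all 3 arrays labelled mock. These markers moved on the same arrays as every gene described below, and their part in the results was not tested. Of 10 fibroblast markers 0 rose and 1, LUM, fell, and their summed signal was 147.7 to 285 against 167.6 to 213.

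Signals are in the units of the deposited table, in which each array had been scaled to a common trimmed mean of about 500.2. The bacterial trp control probe sets read highest on the array labelled MALT1 replicate 3, at 17.6, and reached 6.13 to 14.7 on the others. The signal of 17.6 was taken as background for all arrays. Where the 3 arrays of one group all lie at or below that signal, only a bound is known for that group, and the change is written as at least N-fold. Differences are in log2(signal + 1), arrays labelled MALT1 minus arrays labelled mock, with the standard error (SE) of the linear model, and means are given ± SD with n = 3 arrays per group. A signal cannot be compared between probe sets. Fewer cells with a transcript and less transcript per cell cannot be told apart in these bulk samples. Of the 21 probe sets, 11 lay above background on all 6 arrays, 19 on at least 1 array, and 2 (211912_at of MERTK and 205168_at of DDR2) on none.

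The 250 bases before the most upstream start of each gene in the RefSeq promoter table are shown for the 6 genes whose groups of arrays stood clearly apart, RET and GFRA1 with higher signals and 4 with lower ones on the arrays labelled MALT1. The table holds a single start for MET, MST1R and GAS6, 2 each for RET and AXL, and 4 for GFRA1, and the arrays do not show which start was used. On GRCh38.p14 these stretches are RET at chr10:43076819-43077068 (plus strand), GFRA1 at chr10:116274706-116274955 (minus strand), MET at chr7:116671946-116672195 (plus strand), MST1R at chr3:49903874-49904123 (minus strand), AXL at chr19:41218973-41219222 (plus strand) and GAS6 at chr13:113864077-113864326 (minus strand). Each is written 5′ to 3′ on the strand of the gene. Capitals mark matches, on either strand, to the GC box bound by SP1 (GGGCGG) or to the AP-2 motif (GCCNNNGGC), which overlap or abut where capitals run on.
RET: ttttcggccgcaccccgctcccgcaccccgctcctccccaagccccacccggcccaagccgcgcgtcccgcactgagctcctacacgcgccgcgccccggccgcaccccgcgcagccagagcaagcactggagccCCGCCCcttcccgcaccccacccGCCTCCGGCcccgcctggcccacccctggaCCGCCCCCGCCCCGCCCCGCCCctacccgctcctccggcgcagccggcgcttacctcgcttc
GFRA1: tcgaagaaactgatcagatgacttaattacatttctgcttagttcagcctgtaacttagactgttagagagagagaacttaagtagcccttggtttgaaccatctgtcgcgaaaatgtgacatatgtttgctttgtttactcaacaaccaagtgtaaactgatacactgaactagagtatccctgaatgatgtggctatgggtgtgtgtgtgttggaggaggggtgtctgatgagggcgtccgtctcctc
MET: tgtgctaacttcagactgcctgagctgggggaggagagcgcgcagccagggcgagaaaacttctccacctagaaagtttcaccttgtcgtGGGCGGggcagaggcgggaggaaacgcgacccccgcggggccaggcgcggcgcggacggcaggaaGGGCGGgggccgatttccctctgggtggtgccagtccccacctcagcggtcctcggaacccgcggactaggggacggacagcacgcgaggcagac
MST1R: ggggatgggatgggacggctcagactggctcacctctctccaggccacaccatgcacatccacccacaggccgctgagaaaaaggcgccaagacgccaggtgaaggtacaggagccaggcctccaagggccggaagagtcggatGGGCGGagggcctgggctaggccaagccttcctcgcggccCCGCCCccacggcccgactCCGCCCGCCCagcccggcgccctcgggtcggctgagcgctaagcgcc
AXL: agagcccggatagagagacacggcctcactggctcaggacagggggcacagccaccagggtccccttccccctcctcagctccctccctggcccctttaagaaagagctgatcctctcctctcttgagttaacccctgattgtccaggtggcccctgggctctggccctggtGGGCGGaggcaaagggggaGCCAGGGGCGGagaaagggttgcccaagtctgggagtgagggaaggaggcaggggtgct
GAS6: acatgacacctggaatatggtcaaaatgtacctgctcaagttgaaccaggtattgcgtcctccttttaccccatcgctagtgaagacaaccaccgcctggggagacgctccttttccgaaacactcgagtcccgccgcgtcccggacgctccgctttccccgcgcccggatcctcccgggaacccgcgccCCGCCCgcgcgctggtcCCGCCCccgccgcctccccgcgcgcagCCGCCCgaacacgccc
The 6 stretches differ mainly in base composition. RET was 79.6% G and C, MST1R 70.8%, MET 68.4%, GAS6 66.8% and AXL 64.4%, whereas GFRA1 was 43.2%. The median over the most upstream starts of 27305 genes was 57.6%. The RET stretch held 5 GC boxes, of which 4 lay within the 62 bases before the start, MST1R 4, GAS6 3, and MET and AXL 2 each, while GFRA1 had none in this window. Among all 10 genes 7 held a GC box, which 42.2% of all promoters of this length did, and 4 (RET, AXL, TYRO3 and MERTK) an AP-2 motif, which 19.6% did. The AP-1 motif TGANTCA, found in 6.57% of promoters, was in that of TYRO3 alone among the 10, and the GATA motif AGATAA (9.4%), the TEAD motif CATTCC (12.0%) and the oestrogen response element, GGTCA and TGACC set 3 bases apart (0.0439%), were in none of them. A match is a run of letters and not evidence of binding.

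RET and GFRA1 were high on the arrays labelled MALT1 and near or at background on those labelled mock. On 211421_s_at of RET the signal was 1073, 1084 and 819 on the 3 arrays labelled MALT1 and 0.825, 6.26 and 1.31 on those labelled mock. All 3 of the latter lie below background, so the mean of 992 ± 150.0 is at least 55.8-fold higher. On 215771_x_at the signals were 167.0, 147.4 and 141.3 against 7.25, 6.27 and 4.23, at least 8.59-fold higher. Only 205879_x_at measured RET above background in both groups, with 305, 251 and 333 against 36.2, 52.6 and 40.8. There the ratio was 6.90-fold (log2 difference 2.76 ± 0.19 SE), and no array labelled mock came near any labelled MALT1. Probe sets ending in x_at can bind related transcripts, so the signal of 43.2 ± 8.47 on the arrays labelled mock need not all be RET.

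GFRA1, which presents GDNF to RET, had a single probe set, 205696_s_at. It read 394, 390.1 and 417 on the arrays labelled MALT1 and 1.69, 6.35 and 7.47 on those labelled mock, at least 22.7-fold higher. The 3 arrays labelled MALT1 were close together, with a mean of 400.5 ± 14.7. Both partners of the receptor complex were thus measured above background on the same 3 arrays.

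MET and MST1R were lower on the arrays labelled MALT1, but remained above background on all 6. The brightest MET probe set, 203510_at, read 1176, 1144 and 1115 against 4691, 4305 and 5009, a ratio of 4.07-fold (log2 difference −2.02 ± 0.09 SE). The other MET probe sets were dimmer and showed the same order of the groups. On 213816_s_at the signals were 22.4, 32.3 and 53.3 against 290.2, 259 and 267 (8.05-fold lower, log2 difference −2.97 ± 0.32 SE). On 213807_x_at the means were 34.8 ± 4.93 and 122.4 ± 14.1 (3.52-fold lower), and on 211599_x_at 57.1 ± 17.8 and 185.4 ± 27.4 (3.33-fold lower). The groups did not overlap on any of the 4 probe sets, and the size of the ratio differed between these. MST1R on 205455_at read 58.5, 48.0 and 42.5 against 258, 209 and 226, 4.67-fold lower (log2 difference −2.20 ± 0.16 SE), with no overlap.

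**Figure D1:**
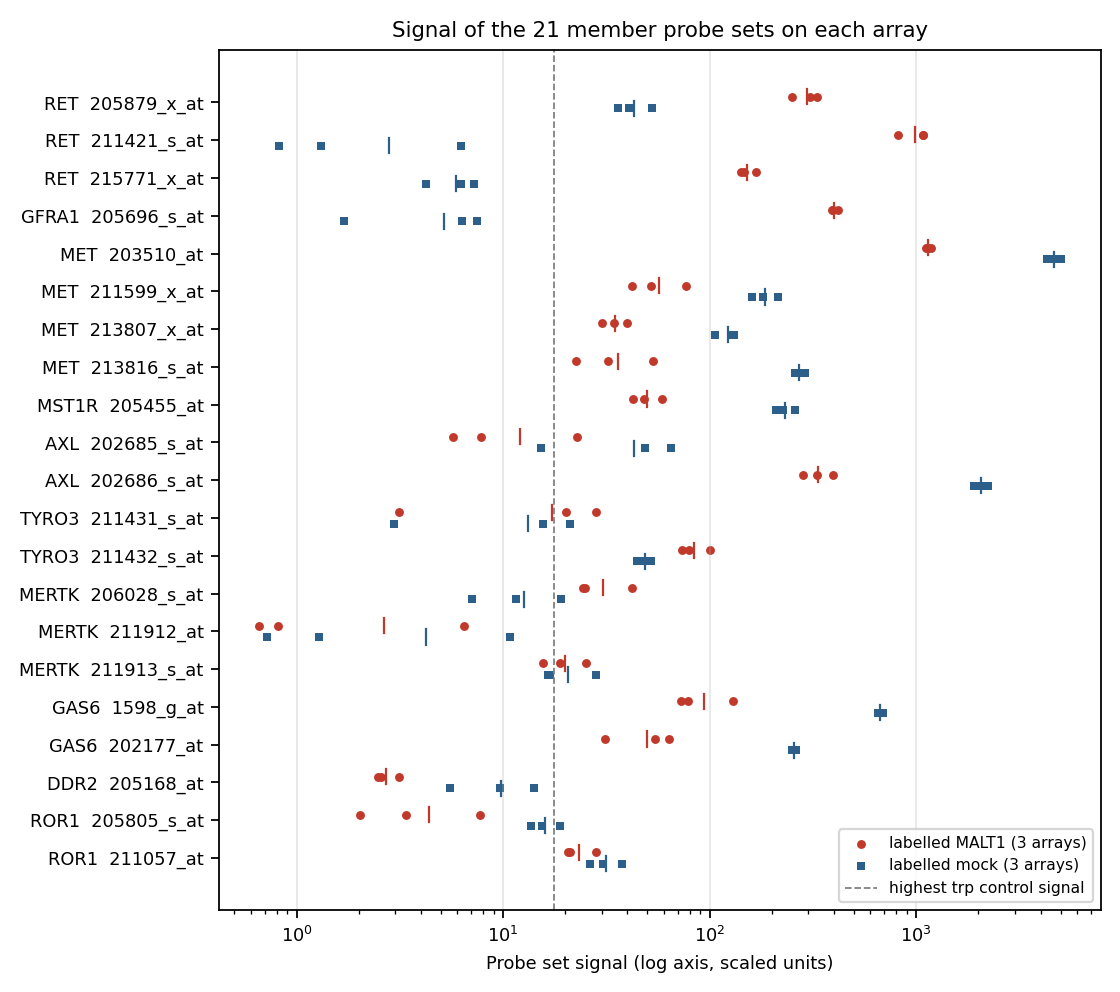
Signal of each of the 21 probe sets on a log axis, with 1 point per array (circles, labelled MALT1; squares, labelled mock), short bars at the means of 3 arrays and a dashed line at the background of 17.6. RET and GFRA1 lie to the right on the arrays labelled MALT1, and MET, MST1R, AXL (202686_s_at) and GAS6 on those labelled mock.

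Of the TAM receptors, AXL was lower on the arrays labelled MALT1, and TYRO3 was slightly higher on its brighter probe set. AXL on 202686_s_at read 283, 331 and 394 against 1904, 2054 and 2222, which is 6.18-fold lower (log2 difference −2.62 ± 0.15 SE). On its dim probe set 202685_s_at the groups overlapped, with 7.81, 22.7 and 5.75 against 64.8, 15.3 and 48.4, and only 1 and 2 arrays above background. TYRO3 on 211432_s_at read 79.3, 73.5 and 100.3 against 52.1, 44.6 and 48.6, 1.73-fold higher (log2 difference 0.78 ± 0.15 SE) and without overlap. Its second probe set, 211431_s_at, ranged from 3.15 to 28.3 on the arrays labelled MALT1 and from 2.97 to 21.2 on the others, so that the groups could not be separated.

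MERTK, which clears dying cells in phagocytes, was dim throughout. On 206028_s_at it read 25.0, 24.3 and 42.3 on the arrays labelled MALT1 and 11.6, 19.1 and 7.10 on those labelled mock, of which 1 was above background. These groups did not overlap, but the means of 30.5 ± 10.2 and 12.6 ± 6.05 lie close to background. On 211913_s_at and 211912_at the groups overlapped.

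GAS6, the ligand of these 3 receptors, was lower on the arrays labelled MALT1 by both its probe sets. On 1598_g_at it read 78.2, 72.3 and 130.2 against 653, 690.4 and 668 (7.42-fold lower, log2 difference −2.88 ± 0.24 SE). On 202177_at it read 63.7, 54.3 and 31.0 against 250.3, 263 and 255 (5.39-fold lower, log2 difference −2.40 ± 0.28 SE). The array labelled MALT1 replicate 3 was the highest of its group on the first probe set and the lowest on the second. It was also the array with the fewest probe sets at or below background, 25.6% against 31.7% to 33.3% on the other 5.

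DDR2 and ROR1 were at or near background. DDR2 on 205168_at read 3.12, 2.48 and 2.57 against 14.1, 5.50 and 9.66, all below background, so no fold is given. ROR1 on 211057_at read 20.6, 21.1 and 28.2 against 26.4, 37.8 and 30.4, and the groups overlapped. On its second probe set, 205805_s_at, the signals were 2.03 to 7.70 against 13.7 to 18.9, with a single array above background. A level at background is not evidence that the transcript was absent.

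Counted over all 21 probe sets, the arrays labelled MALT1 lay wholly above those labelled mock in 6 and wholly below in 10, and the groups overlapped in 5. Of all probe sets tested, 26.4% lay wholly above and 23.3% wholly below (49.7% together). The linear model placed 5 of the 21 higher and 10 lower at an adjusted p under 0.05, where it placed 18.6% of all probe sets higher and 17.0% lower (35.6% together). Among the 10 placed lower were 205168_at of DDR2, below background on all 6 arrays, and 205805_s_at of ROR1, above it on 1 array. Since the genes were picked on this same comparison, nothing is read from these counts. The median log2 difference was −1.45 over the 21 probe sets and 0.08 over all 22215.

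**Figure D2:**
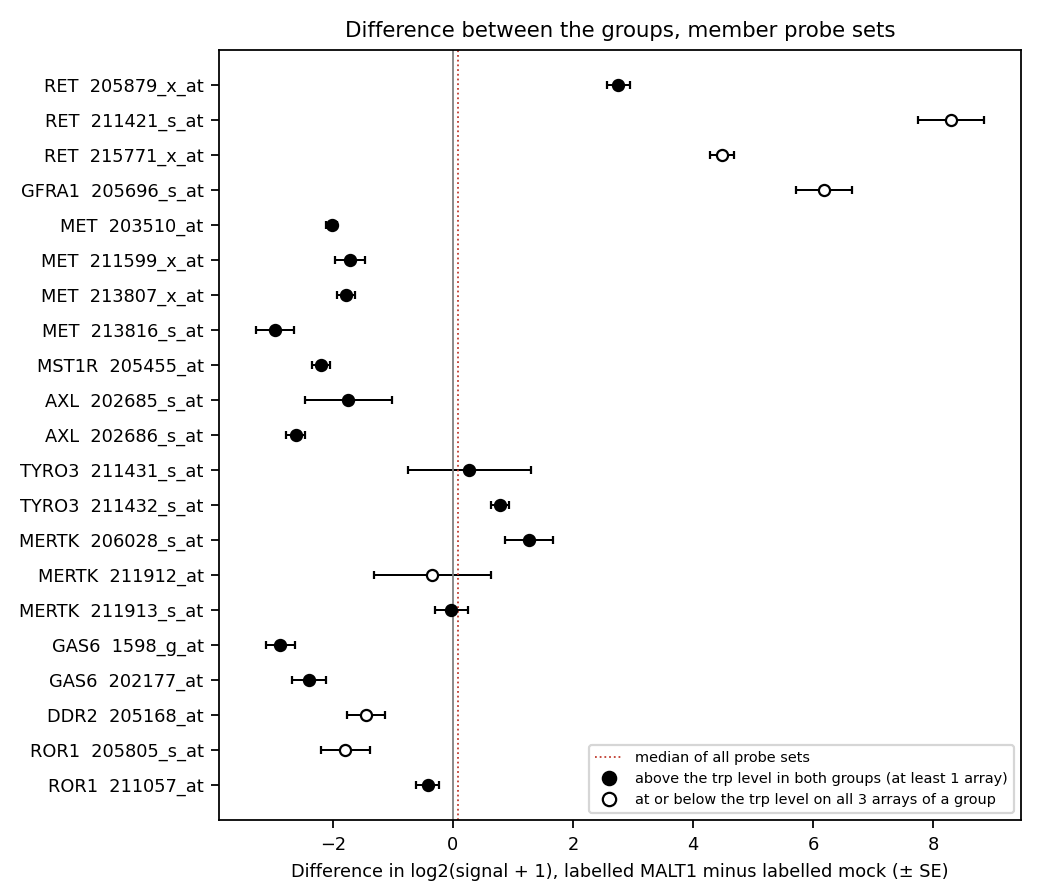
Difference between the groups for each of the 21 probe sets, in log2(signal + 1) with bars of 1 SE, where open points mark probe sets at or below background on all 3 arrays of a group. Differences ran from −2.97 (213816_s_at of MET) to 8.30 (211421_s_at of RET, whose size depends on mock signals below background), and the dotted line marks the median of all probe sets, 0.08.

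For each of RET, GFRA1, MET and AXL, the genes whose 6 log2 signals, centred on their own mean, lay closest to those of its brightest probe set were named. With 2 groups so far apart the likeness rests mostly on the size of the group difference. Closest to RET were the mitochondrial carrier UCP2 (distance 1.16 log2 units over 6 arrays), the calcium pump ATP2A3 (1.20) and RGS16 (1.43). UCP2 read 1226, 1275 and 1250.0 against 4.38, 7.54 and 2.38. Closest to GFRA1 were the luminal transcription factor FOXA1 (distance 0.55), the gluconeogenic enzyme FBP1 (0.59) and the T-box factor TBX2 (0.72). FOXA1 read 709, 739 and 770.5 against 2.35, 13.8 and 13.4, all 3 of the latter at background. Closest to MET were the glycogen phosphorylase PYGL (distance 0.09), the Wnt receptor FZD2 (0.10) and the matrix protein SPARC (0.13). Closest to AXL were LANCL2 (0.13), the matricellular protein CCN1 (0.18) and the clock factor BMAL2 (0.21). CCN1 read 695, 731 and 860.3 against 4740, 4868 and 5383. The mock signals of RET, GFRA1 and most genes close to them are at background, where log2 values scatter, and the distances there are larger than those to MET and AXL.

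The genes around the receptors were taken from lists of textbook ligands, co-receptors, processing enzymes and adaptors, and were tested gene by gene. These lists too were chosen with earlier results of these data known. Each gene is represented by its brightest probe set, and by that measure 21.1% of all 11963 genes rose and 19.2% fell at an adjusted p under 0.05 (40.4% together), with a median log2 difference of 0.08. Among 7 measured GDNF family ligands and co-receptors other than GFRA1, 2 rose, 1 fell and 4 did not pass, with a median log2 difference of 0.78. GDNF itself had no probe set of its own in the annotation used here. Artemin (ARTN), which signals through GFRA3 and RET, fell from 111.6 ± 20.4 to 14.6 ± 5.26 (log2 difference −2.88 ± 0.28 SE, adjusted p = 0.0012), with 1 of the 3 arrays labelled MALT1 above background, and all 3 of its probe sets passed. GDF15, whose receptor is the RET partner GFRAL, rose on 1 of its 2 probe sets, from 26.0 ± 5.70 to 310.2 ± 16.2 (log2 difference 3.55 ± 0.19 SE, adjusted p = 0.00019). With both of its probe sets averaged, GDF15 did not pass (limma adjusted p = 0.052). Neurturin (NRTN), the GFRA2 ligand, passed at 16.3 ± 3.06 against 0.834 ± 0.303 (adjusted p = 0.0003), but only 1 array was above background and no fold is given. The other co-receptors were dim: GFRA2, GFRA3 and GFRA4 did not pass, although GFRA2 was a second gene that fell when mock replicate 3 was left out.

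Of 11 measured genes for ligands of MET and MST1R, the proteases that activate them and partners of the receptors, 4 rose, 1 fell and 6 did not pass (median log2 difference 0.58). HGF was dim, at 24.4 ± 9.08 and 35.8 ± 8.25, and 0 of its 5 probe sets passed (adjusted p = 0.25 on the brightest). CD44, a hyaluronan receptor whose variant forms assist MET, fell from 9894 ± 238 to 1794 ± 144.2 (log2 difference −2.46 ± 0.10 SE, adjusted p = 9.4e-05), and 7 of its 8 probe sets passed. LRIG1, which promotes degradation of several receptor kinases including MET, rose from 99.9 ± 6.18 to 269 ± 22.1 (log2 difference 1.42 ± 0.10 SE, adjusted p = 0.00052). The membrane protease inhibitor SPINT2 rose by 0.84 ± 0.09 SE on the log2 scale (adjusted p = 0.0015), and its target ST14 (matriptase), which can activate HGF, by 0.62 ± 0.10 SE (adjusted p = 0.0077).

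Of 8 genes for TAM ligands and for the enzymes that process ligands or shed the receptors, 3 rose, 2 fell and 3 did not pass (median log2 difference 0.29). The 2 that fell did so narrowly. Protein S (PROS1), the second TAM ligand, read 39.1 ± 10.2 against 72.8 ± 6.98 (log2 difference −0.91 ± 0.22 SE, adjusted p = 0.028), and the sheddase ADAM10 fell by 0.48 ± 0.09 SE on the log2 scale (adjusted p = 0.013). With the replicate number as a block neither passed (adjusted p = 0.094 for PROS1 and adjusted p = 0.072 for ADAM10). PROS1 did not pass without MALT1 replicate 1 (adjusted p = 0.069) or without mock replicate 1 (adjusted p = 0.071), 2 (adjusted p = 0.091) or 3 (adjusted p = 0.072), and ADAM10 did not without MALT1 replicate 2 (adjusted p = 0.051). The galectin LGALS3, a proposed MERTK ligand, rose from 2664 ± 57.7 to 5566 ± 152.9 (log2 difference 1.06 ± 0.08 SE, adjusted p = 0.00051). VKORC1 and GGCX are enzymes of the vitamin K cycle, in which GGCX carboxylates GAS6 and protein S. They rose by 0.63 ± 0.08 SE (adjusted p = 0.003) and 0.62 ± 0.12 SE (adjusted p = 0.013) on the log2 scale. GGCX missed the threshold without mock replicate 2 (adjusted p = 0.051). The sheddase ADAM17 did not pass on its brightest probe set (limma adjusted p = 0.19), although 2 of its 3 probe sets passed.

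Of 6 collagen and Wnt ligands of DDR2 and ROR1, 1 rose, 0 fell and 5 did not pass. The 1 that rose, COL2A1, read 28.7 ± 11.1 against 7.19 ± 1.90, was above background on 2 arrays in all, and did not pass without MALT1 replicate 2 (adjusted p = 0.054) or with the replicate number as a block (adjusted p = 0.074). Without mock replicate 2 (adjusted p = 0.05, before rounding just above the threshold) or mock replicate 3 (adjusted p = 0.052) it did not pass either, and without MALT1 replicate 3 the number that rose was 2. With the replicate number as a block 1 gene of the list still rose, a gene other than COL2A1. In the fit without the block WNT5A read 69.7 ± 12.8 against 44.7 ± 8.87 and did not pass (adjusted p = 0.073).

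The adaptors and effectors that bind activated receptors went both ways. Among the 21 with a probe set, 8 rose, 7 fell and 6 missed the threshold (median log2 difference 0.55). GRB10, an adaptor bound by RET and the insulin receptor, rose from 42.4 ± 1.42 to 250.2 ± 32.7 (log2 difference 2.53 ± 0.12 SE, adjusted p = 0.00015). Among the ubiquitin ligases that turn over active receptors, CBLB fell from 293 ± 9.75 to 137.2 ± 1.82 (log2 difference −1.09 ± 0.08 SE, limma adjusted p = 0.00048), with 1 of its 2 probe sets passing. The epithelial form CBLC fell from 44.0 ± 11.0 to background (at least 2.45-fold, limma adjusted p = 0.00048). CBL, the third of these ligases, read 21.3 ± 17.9 against 27.3 ± 16.7 and did not pass (adjusted p = 0.76). STAT3, a transcription factor activated by RET and MET, fell by 0.94 ± 0.08 SE on the log2 scale (adjusted p = 0.0008).

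Of 16 measured transcription factors with known roles at the RET, GFRA1, MET or AXL genes, 5 rose, 4 fell and 7 did not pass (median log2 difference 0.06). ESR1, the oestrogen receptor, rose from 115.0 ± 4.65 to 1765 ± 45.0 (log2 difference 3.93 ± 0.08 SE, adjusted p = 4.8e-05), with 3 of its 9 probe sets passing, and GATA3 by 6.07 ± 0.14 SE on the log2 scale (adjusted p = 5.3e-05). FOSL1, an AP-1 subunit linked to AXL transcription, fell from 567 ± 7.32 to 63.6 ± 5.95 (log2 difference −3.14 ± 0.10 SE, adjusted p = 6.8e-05). JUN, another AP-1 subunit of the list, rose from 1411 ± 121.3 to 2098 ± 108.5 (log2 difference 0.575 ± 0.105 SE, limma adjusted p = 0.011), with 2 of its 4 probe sets passing. YAP1, a coactivator of TEAD factors at AXL, fell from 860 ± 18.6 to 241 ± 13.5 (log2 difference −1.83 ± 0.09 SE, adjusted p = 0.00014). ESR1, GATA3 and FOXA1 are also among the luminal markers above, and this list was written with several of these differences known.

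**Figure D3:**
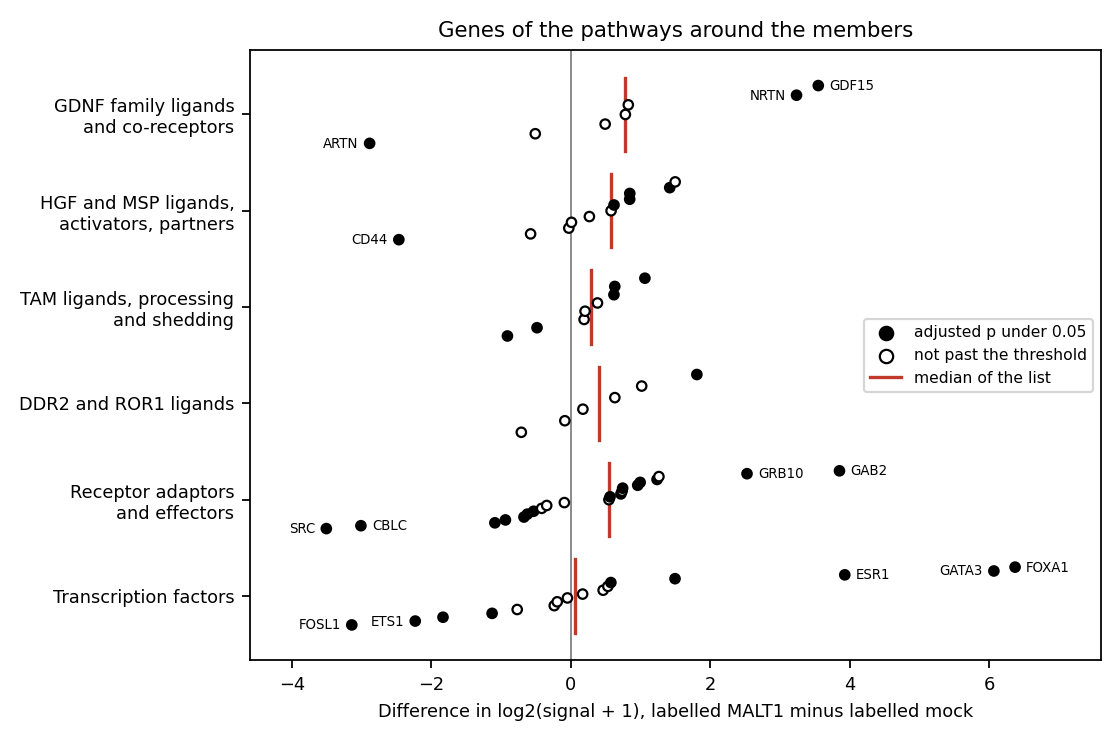
Difference in log2(signal + 1) between the groups for each measured gene of 6 lists around the receptors, with filled points past an adjusted p of 0.05, open points not past it and a red bar at the median of each list. The list medians lie between 0.06 (transcription factors) and 0.78 (GDNF family ligands and co-receptors), and each list but that of DDR2 and ROR1 ligands has genes past the threshold on both sides of 0.

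The remaining receptor tyrosine kinases gave the setting for the 10 genes. Of 43 with a probe set, 13 rose, 7 fell and 23 missed the threshold, and 7 were at background on all 6 arrays (median log2 difference 0.32). Without mock replicate 1 the number that fell was 4. EPHA2, an ephrin receptor of epithelial cells, fell from 1107 ± 73.0 to 153.7 ± 17.1 (log2 difference −2.84 ± 0.12 SE, adjusted p = 0.00011), and EGFR fell by 3.10 ± 0.16 SE on the log2 scale (adjusted p = 0.00018). ERBB3, a receptor for neuregulins that MET can phosphorylate, rose from 82.7 ± 13.0 to 654 ± 70.8 (log2 difference 2.97 ± 0.15 SE, adjusted p = 0.00018), and EPHA4 from 49.9 ± 7.55 to 236.9 ± 16.2 (log2 difference 2.23 ± 0.14 SE, adjusted p = 0.00032). EGFR passed on 4 of its 6 probe sets and ERBB3 on 1 of its 2. ROR2, the relative of ROR1, read 22.9 ± 11.9 against 1.82 ± 1.32 and passed (adjusted p = 0.0063), with 2 arrays labelled MALT1 and 0 labelled mock above background, at least 1.19-fold higher. DDR1, the relative of DDR2, is not described, since its probe sets carry a second gene symbol.

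**Figure D4:**
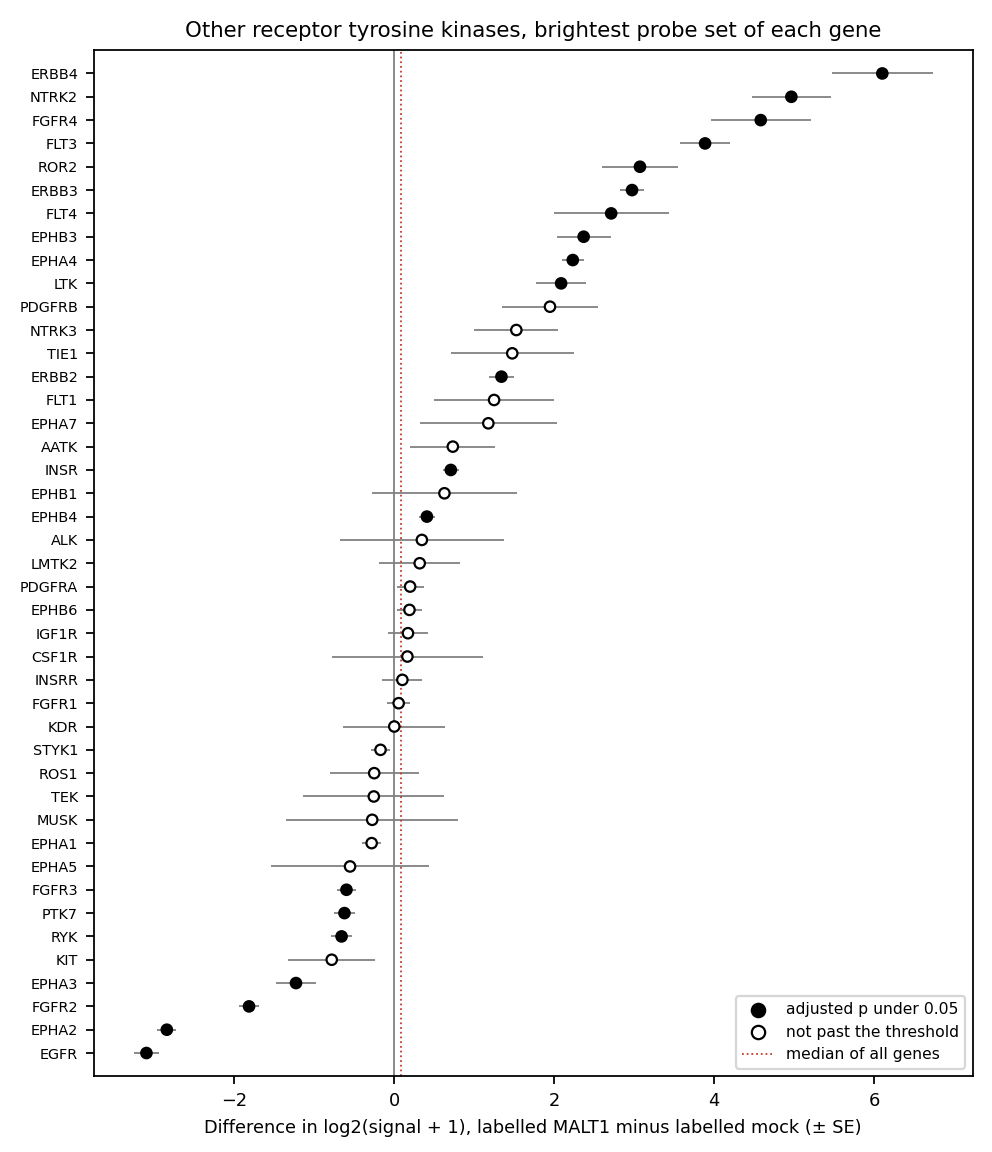
Difference in log2(signal + 1) with bars of 1 SE for the 43 other receptor tyrosine kinases, ordered by value, with filled points past an adjusted p of 0.05 and a dotted line at the median of all genes, 0.08. EGFR (−3.10) and EPHA2 (−2.84) lie lowest, and ERBB4 (6.10, at background on the arrays labelled mock) lies highest.

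The 10 genes were also set beside their neighbours in gene order, up to 5 measured genes on each side, 97 in all, an analysis chosen after the data were seen. Of these neighbours 13 rose (13.4%) and 24 fell (24.7%), where 21.1% and 19.2% of all genes did. MET had 5 neighbours that fell and 0 that rose. Immediately before it CAV1 and CAV2, the coat proteins of caveolae, fell by 1.86 and 2.71 on the log2 scale (adjusted p = 0.00025 and adjusted p = 6.9e-05), and TES and MDFIC beyond them by 1.14 and 2.27 (adjusted p = 0.00067 and adjusted p = 0.00011). TFEC, which lies between TES and MDFIC, was above background on 1 array and did not pass (log2 difference −0.56, adjusted p = 0.68). On the other side of MET, CAPZA2 did not pass (log2 difference 0.17, adjusted p = 0.32). Neither did WNT2, CFTR and LSM8 after it, of which CFTR was at background on all arrays. ANKRD7, the farthest of the 5 genes on that side, fell from 33.4 to background (at least 1.86-fold, adjusted p = 0.0011). RET had 3 neighbours that rose, of which LOC441666 was at background on all arrays, and 1 that fell. Its immediate neighbours BMS1 and CSGALNACT2 did not pass (log2 differences −0.22 and −0.02), while the zinc finger genes ZNF239 and ZNF32, the third and the fourth genes after RET, read 511 and 255 against 6.97 and 8.23. MERTK had 5 neighbours that fell, among them the cytokine genes IL1A (adjusted p = 0.00018) and IL1B (adjusted p = 3.3e-05), which lie after it. The nearest neighbours of AXL, CYP2F1 and HNRNPUL1, did not pass (log2 differences −0.34 and −0.26), and neither did those of GFRA1 (ATRNL1 and PNLIP). Of these, CYP2F1 and PNLIP were at background on all arrays and ATRNL1 was above it on 1 array of each group. For these 3 genes not passing does not show that the transcript was unchanged.

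**Figure D5:**
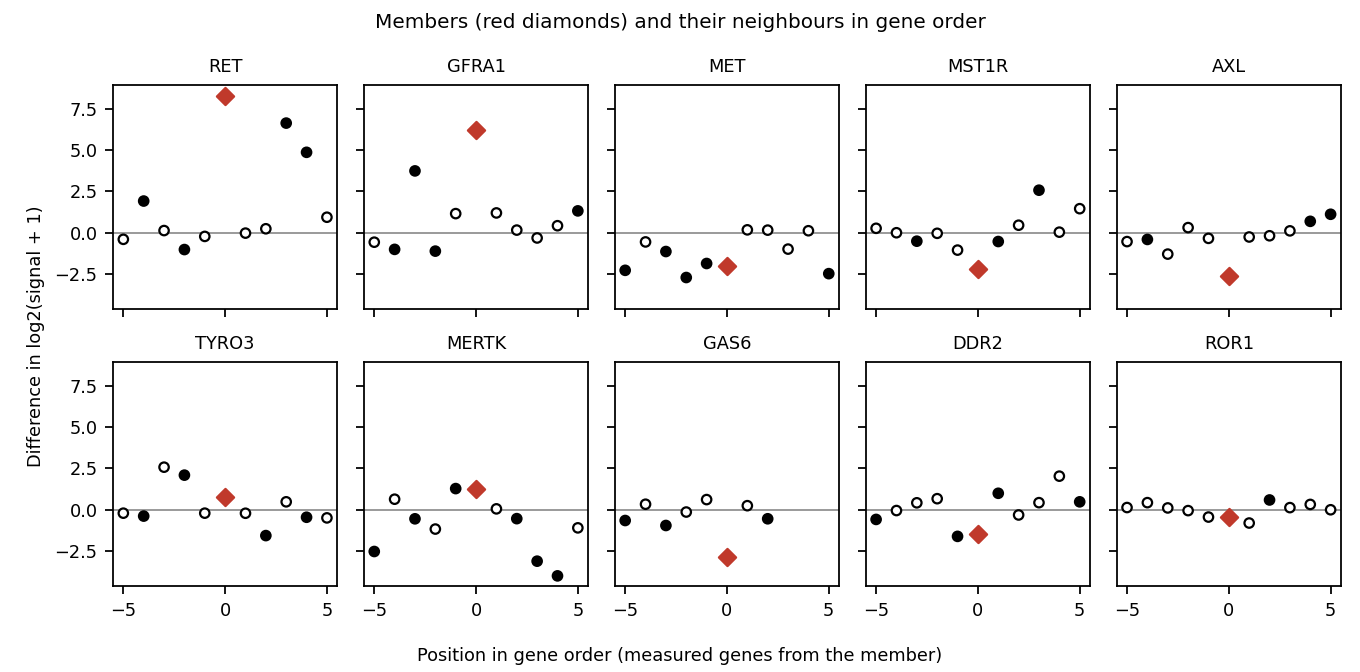
Difference in log2(signal + 1) for each of the 10 genes (red diamonds, brightest probe set) and up to 5 measured genes on either side of it in gene order, with filled points past an adjusted p of 0.05. The 4 filled points before MET lie between −2.71 and −1.14, and the filled point after it (ANKRD7) at −2.475. The points nearest to RET, AXL and GFRA1 are open, among them CYP2F1 and PNLIP, which were at background on all arrays.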

How the data were processed

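The authors deposited 1 table of linear intensity values, 1 per probe set and array, scaled so that the mean of each array after trimming 2% of probe sets at each end was about 500.2. Per the labels' protocols, total RNA was isolated with Trizol and made into biotinylated aRNA. How probes were summarised is not stated there, and the table holds no detection call.

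Of 22277 probe sets 62 controls were left out, and 22215 were fitted as log2(signal + 1) with limma 3.58.1 (lmFit and eBayes) in R 4.3.3, with group as the only term, 3 arrays per group and two-sided p-values with Benjamini-Hochberg adjustment across all of them. The added 1 makes fold changes of dim genes smaller than their signal ratios, and ratios of means are geometric. The number of arrays limits the precision. In simulated data with 22215 probe sets, changes were placed on probe sets above the median signal. Those called were 2 of 50 at 0.5, 30 of 50 at 1, 47 of 50 at 2 and 47 of 50 at 3 on the log2 scale. Of the 22015 left unchanged, 11 were called. In the data 35.6% of probe sets were called, so the adjusted threshold was stricter in the simulation. These shares therefore do not give the power of the fit to the data.

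Genes were named through the platform annotation only from probe sets with 1 symbol, and neighbours through the RefSeq table of GRCh38.p14, of which no coordinates are used beside those of the promoters. The genes named from a list were up to 4 that passed with the smallest adjusted p, plus HGF, PROS1 and ROR2. CBL, JUN, ADAM17, WNT5A, GFRA2 to GFRA4 and the neighbours were named after their values were seen. The members and the lists were chosen with earlier results of these data known. Alternatives were another pseudocount, median centring, quantile normalization, a filter on dim probe sets, the mean over a gene's probe sets, a replicate block and leaving out each array.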

Additional observations from a re-analysis of the deposited data

How the results depend on the processing

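All 21 member probe sets kept the sign of their difference with a pseudocount of 16, after median centring (a shift of −0.13 for each), after quantile normalization and with the replicate number as a block. With 1 array left out, 19 to 21 kept it. The fitted log2 difference of 211421_s_at of RET, whose mock signals are at background, was 8.91 without mock replicate 2 against 8.30. Leaving JUN and ADAM17 aside, none of the genes named from the lists changed sign under the alternatives followed gene by gene. Those alternatives leave out the mean over probe sets. The other list genes and the neighbours were only recounted. With its 2 probe sets averaged, GDF15 no longer passed (log2 difference 2.01, limma adjusted p = 0.052).

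Counts that moved by over 1.5 times were small ones. With the log2 values of a gene's probe sets averaged, 1 GDNF family gene rose in place of 2, 3 DDR2 and ROR1 ligands in place of 1, and 4 adaptors fell in place of 7. With the replicate block 0 TAM ligand and processing genes fell in place of 2, and the block moved no other count here by over 1.5 times. Leaving out 1 array at a time gave 1 to 2 GDNF family genes and 1 to 2 TAM genes that fell, 0 to 2 DDR2 and ROR1 ligands that rose and 4 to 6 other receptor tyrosine kinases that fell. The causes were not tested.

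Same-numbered arrays did not deviate together (correlations of −0.03, −0.02 and 0.01), and arrays with different numbers gave −0.02 to 0.03. With so few arrays per group these values do not settle whether the numbers pair the samples. Whether same-numbered arrays shared a culture or batch was not tested. Signals near 17.6 limit what can be said of DDR2, ROR1, MERTK and the dim ligands.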
